A study of Hordeum vulgare with 18 samples.

Results

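The 150 features described here had transcripts that were abundant in barley spikes when the first awns were visible, were much lower at the end of heading, and yet were still present there. They were chosen from whole-spike mRNA sequencing by their own values. A feature was eligible if its identifier began with MLOC and if its mean normalized count at stage 59 was at least 100 in each of 3 genotypes. For each genotype the mean log2(count + 1) at stage 59 was set against that at stage 49, and the smallest of the 3 falls was the score. The 150 highest scores were kept, out of 15286 eligible features, 24211 MLOC features and 26066 features in the table. Stage differences of the members are therefore a description and carry no test below.

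The spikes came from barley (Hordeum vulgare, cultivar Golden Promise) grown in field plots. Line KD-CKX1 5.8 (line 5.8) and line KD-CKX1 17_10 (line 17_10) are transgenic lines in which HvCKX1 is silenced, and the control is labelled azygous, which means that it carries no transgene. Each genotype was sampled at stage 59 and stage 49 of the BBCH scale of cereal development, with 3 libraries in each of the 6 groups, which the series description calls biological replicates. The labels used here name neither the silencing construct, nor its promoter, nor how many plants make up a library. If the 3 libraries of a group came from shared plants, the p-values would measure only the spread between these libraries.

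At stage 49 the spike is still in the swollen sheath of the flag leaf and the first awn tips show. At stage 59 the whole spike has emerged, and the florets have moved on toward or past pollination. HvCKX1 belongs to the cytokinin oxidase/dehydrogenase family, enzymes that break down cytokinins, the plant hormones that promote cell division in young organs. A whole spike holds anthers, pistils, glumes, lemmas, awns and rachis together, so a lower value may stand for fewer cells of a type or for less RNA per cell, and the counts cannot tell these apart.

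The files pair no identifier with a gene name, and 0 of the 150 members matched the reference table of 58438 barley genes. The members are therefore given by identifier with no function, the tissue could not be checked against marker genes, and the silencing of HvCKX1 could not be checked. Values are reads per feature divided by a size factor per library by the authors, called normalized counts here. The whole reads behind them summed to between 24459652 and 106034579 per library. Some libraries stand apart from their group. By a chi-square comparison of reads over all features, replicate 2 of line 5.8 at stage 49 differed from replicates 1 and 3 by 406.8 and 611.5 per feature, where those 2 differed from each other by 45.7. Replicate 1 of line 5.8 at stage 59 differed from replicates 2 and 3 by 173.2 and 264.2, where those differed by 41.8. At stage 49, replicate 2 of line 17_10 differed from the others by 265.5 and 233.1, which differed by 44.95, and replicate 2 of the control by 262.2 and 296.0, which differed by 71.5. Replicate 2 of line 17_10 at stage 59 differed from the others by 116.4 and 195.6, which differed by 63.9. Such values also grow with depth. Calls are given with and without each library that changed them.

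The members were among the better expressed features at stage 49 and among the less expressed eligible ones at stage 59. The rule asks for a minimum at stage 59 and a steep fall, so it largely fixes the high level at stage 49. Their median group mean at stage 59 was 459 normalized counts in line 5.8, 382 in line 17_10 and 347 in the control. At stage 49 it was 6646 in line 5.8, 6021 in line 17_10 and 5697 in the control. Eligible features as a whole had medians of 1470, 1460 and 1453 in the same order at stage 59. At stage 49 their medians were 1461, 1446 and 1450. Division by size factors tends to bring the middle of the features to the same level in every library. These near-equal medians are therefore largely set by the scaling. They do not describe single features, since 5388 eligible features fell in every genotype. All 150 members had a mean of at least 1000 over the 9 libraries of stage 49, and 43 had at least 10000. At stage 59, 28 of the 150 still had a mean of at least 1000. The same counts over eligible features are not given here, and nothing is read from those of the members.

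**Figure D1:**
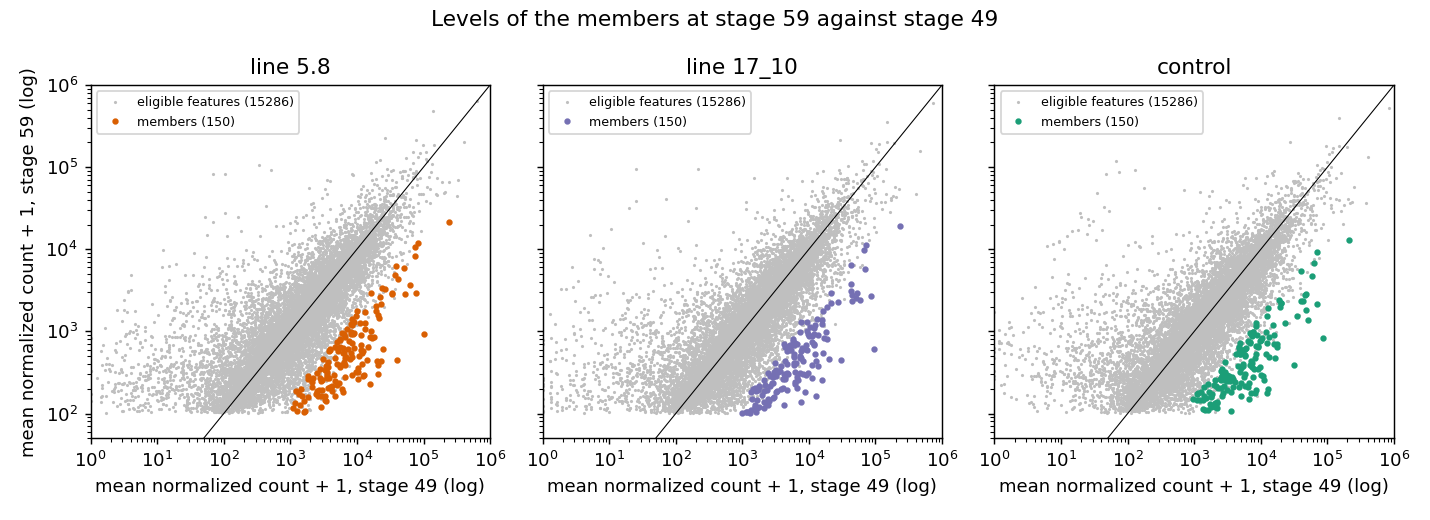
Mean normalized count + 1 at stage 59 (vertical, log axis) against stage 49 (horizontal, log axis) in line 5.8, line 17_10 and the control, with 15286 eligible features in grey, the 150 members in colour and the line of equal levels. The members lie well below the line of equal levels in each genotype, at stage 59 means from 100 upward.

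The median member difference (stage 59 minus stage 49, log2 scale) was -3.54 in line 5.8, -3.77 in line 17_10 and -3.67 in the control. The eligible features had medians of 0.05, 0.07 and 0.06, which the scaling by size factors also largely sets. As a share of the stage 49 mean, the median member kept 8.44% at stage 59 in line 5.8, 7.85% in line 17_10 and 7.73% in the control. The most that any member kept was 17.7% in line 5.8, 17.1% in line 17_10 and 16.01% in the control, and the least was 0.927%, 0.640% and 0.982%. Scores ran from 6.71 at rank 1 to 2.64 at rank 150, with a median of 3.25, and 23 members had a score of at least 4. In 149 of 150 members all 9 libraries of stage 59 lay below all 9 of stage 49, where 15.1% of all 20874 features tested did. The rule used this contrast, so nothing is read from that count.

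Taken as a group, the members gave up most of their place in the transcript pool. They took 0.285, 0.343 and 0.293% of all normalized counts in replicates 1 to 3 of line 5.8 at stage 59. The shares were 0.184, 0.393 and 0.223% in line 17_10 and 0.270, 0.213 and 0.204% in the control. Replicate 2 of line 17_10 had the highest share of the 9 libraries of stage 59 and replicate 1 of the same line the lowest. At stage 49 the members took 3.95, 3.02 and 3.67% in line 5.8. The shares were 3.44, 3.30 and 3.18% in line 17_10 and 3.01, 3.91 and 2.32% in the control. The genotypes overlapped at stage 49, where the control held both the lowest share and the second highest. At stage 59 all 3 libraries of line 5.8 lay above all 3 of the control, with means of 0.307 ± 0.0315% and 0.229 ± 0.0361% (SD, n = 3 each), while line 17_10 at 0.267 ± 0.111% overlapped both. No test was run on these sums, since the members were chosen from the same values. The 5 members highest at stage 49 made up between 20.5 and 32.2% of the members' counts in a library, so the shares do not rest on a single transcript.

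**Figure D2:**
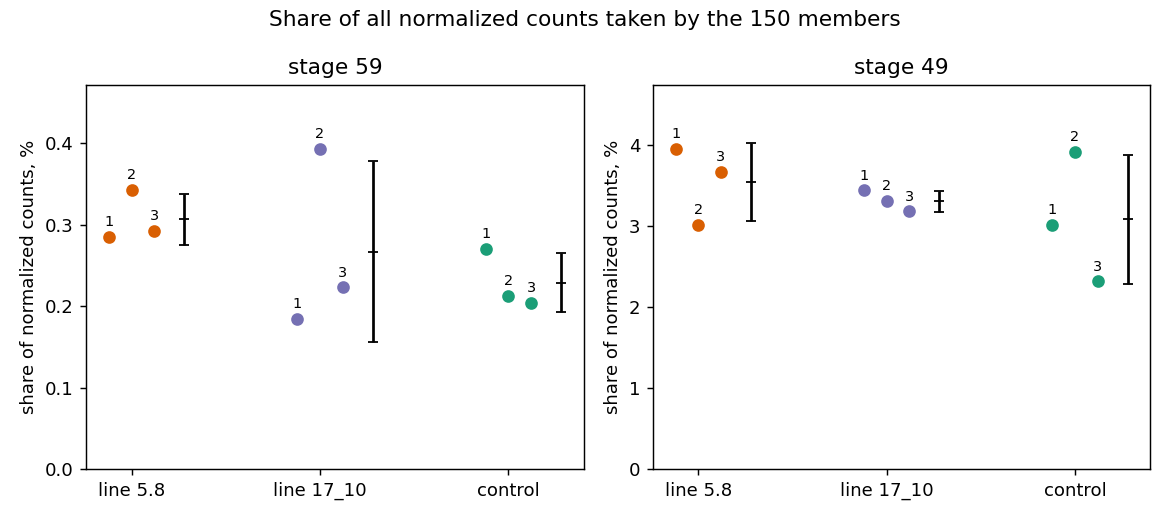
Share of all normalized counts (percent, axes start at 0) taken by the 150 members in each library at stage 59 (left) and stage 49 (right), for line 5.8, line 17_10 and the control. Points are libraries with their replicate number, and the bar beside them is the mean ± SD of 3 libraries. The stage 59 shares lie between 0.184 and 0.393% and the stage 49 shares between 2.32 and 3.95%.

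MLOC_73233 had the highest score. It stood at 501, 1423 and 879 normalized counts in the 3 libraries of line 5.8 at stage 59, against 133313, 42608 and 126673 at stage 49. In line 17_10 it had 206, 1308 and 322 at stage 59, against 96539, 114407 and 75693 at stage 49. In the control it had 1351, 717 and 444 at stage 59, against 91724, 95038 and 69264 at stage 49. The stages were far apart in every genotype, with 156 times the stage 59 mean at stage 49 in line 17_10, 108 times in line 5.8 and 102 times in the control. Within stage 59 the 3 libraries of a genotype lay wide apart, and the genotypes overlapped.

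MLOC_15779 came second by score and was far more even at stage 59. It had 433, 456 and 462 normalized counts in libraries of line 5.8, 241, 689 and 417 in line 17_10, and 429, 378 and 351 in the control at that stage. Stage 49 values were 44012, 43747 and 30452 in line 5.8, 29255, 32011 and 28641 in line 17_10, and 22677, 50959 and 19819 in the control. The genotypes overlapped at both stages, and replicate 2 of the control was the highest library of stage 49. MLOC_5604 stood at 312, 315 and 273 in line 5.8, 112, 273 and 105 in line 17_10, and 282, 163 and 87.8 in the control at stage 59. Its stage 49 values were 19725, 24891 and 18110 in line 5.8, 14417, 11951 and 11421 in line 17_10, and 10965, 17557 and 8343 in the control. Line 5.8 held the highest library at both stages for MLOC_5604, and all 3 of its stage 49 libraries lay above those of the control.

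MLOC_558 showed how 1 library can stand apart. At stage 59 it had 251, 218 and 220 normalized counts in libraries of line 5.8, 103, 294 and 363 in line 17_10, and 198, 224 and 169 in the control. Its stage 49 values were 21693, 3524 and 21876 in line 5.8, 17434, 17942 and 12505 in line 17_10, and 13751, 13561 and 10835 in the control. Replicate 2 of line 5.8 was the lowest library of stage 49 for this feature, below every other by a wide margin. MLOC_23006 stood at 1051, 121 and 40.3 in line 5.8 at stage 59, against 7710, 13580 and 13925 at stage 49. Replicate 1 of line 5.8 was its highest library of stage 59 and replicate 3 of the same line its lowest. In line 17_10 MLOC_23006 had 237, 363 and 210 at stage 59, and in the control 191, 110 and 225, and these groups overlapped.

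The next 3 by score were MLOC_40806, MLOC_59184 and MLOC_78725. Their stage differences lay between -5.79 and -5.10 for MLOC_40806, between -5.42 and -4.97 for MLOC_59184 and between -5.55 and -4.86 for MLOC_78725 over the 3 genotypes (log2, stage 59 minus 49). Of the stage 49 mean, MLOC_78725 kept 1.91% in line 5.8, 3.53% in line 17_10 and 2.90% in the control. For all 3 features, replicate 2 was the highest of the control libraries of stage 49 and replicate 3 the lowest. At stage 49 line 5.8 had 10502, 10222 and 10282 normalized counts of MLOC_40806 and line 17_10 had 8304, 9017 and 8955, against 5439, 12680 and 3116 in the control.

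The most abundant member was MLOC_50162, which ranked first by mean level at both stages. At stage 59 it had 13659, 29319 and 21920 normalized counts in libraries of line 5.8, 11251, 32966 and 12696 in line 17_10, and 14532, 11410 and 12482 in the control. At stage 49 it had 305117, 185546 and 241991 in line 5.8, 206336, 267217 and 218284 in line 17_10, and 182603, 321840 and 124494 in the control. It kept 8.86% of its stage 49 mean in line 5.8, 8.23% in line 17_10 and 6.11% in the control, close to the median member. MLOC_77651, MLOC_66415 and MLOC_76349 followed at stage 59, and MLOC_73233, MLOC_77651 and MLOC_66415 at stage 49. MLOC_77651 kept 14.2% in line 5.8, 15.8% in line 17_10 and 13.4% in the control. MLOC_66415 kept 14.5%, 14.8% and 10.6% in the same order. Abundance at stage 49 thus went with both shallow and deep falls, since MLOC_73233 kept under 1% in each genotype. Only 2 members were among the 100 most abundant features of the whole table by mean over the 18 libraries.

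At the lower edge of the choice, MLOC_10789, MLOC_3888 and MLOC_80571 were the last 3 inside, with scores of 2.65, 2.65 and 2.64. The first 3 outside were MLOC_52387, MLOC_56998 and MLOC_58270, with scores of 2.64, 2.64 and 2.64. The edge therefore separates features of almost equal score. MLOC_3888 had 1102, 1838 and 1728 normalized counts in libraries of line 5.8, 996, 1981 and 888 in line 17_10, and 1039, 728 and 865 in the control at stage 59. Just outside, MLOC_52387 had 1184, 1271 and 1699 in line 5.8, 1124, 1160 and 1347 in line 17_10, and 1316, 1139 and 1080 in the control at stage 59. Both stood between 5469 and 11436 in every library of stage 49. MLOC_80571 was the 1 member whose stages overlapped: replicate 1 of line 5.8 at stage 59 had 1659 normalized counts, and replicate 2 of line 5.8 at stage 49 had 973.

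**Figure D3:**
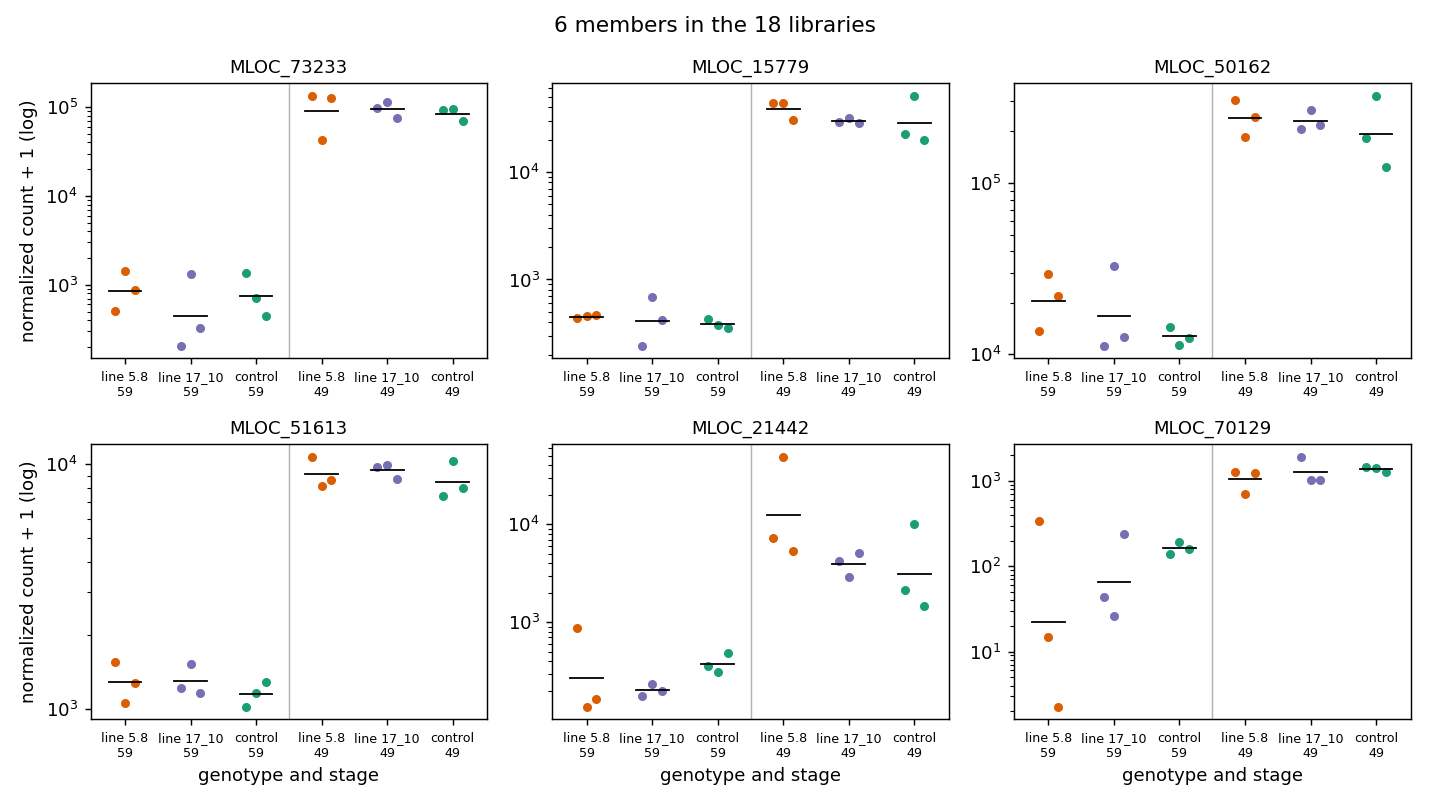
Normalized count + 1 (log axis) of 6 members in the 18 libraries, by genotype and stage, with stage 59 left of the grey line and stage 49 right of it. Points are libraries and black bars are means of the log2 values of 3 libraries. MLOC_51613 is even within each stage, while MLOC_70129 runs from 1.26 to 334 in line 5.8 at stage 59.

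Whether the members were kept at stage 59 was checked library by library, because the rule used means. Of the 150, 121 had at least 100 normalized counts in all 9 libraries of stage 59. The other 29 lay below 100 in at least 1 library, 6 of them below 50 and 1 below 10. That member was MLOC_70129, with 334, 13.8 and 1.26 normalized counts in libraries of line 5.8, 42.4, 25.3 and 236 in line 17_10, and 137, 194 and 158 in the control at stage 59. Its mean of 116 in line 5.8 rests on replicate 1 alone. At stage 49 the same feature was even, at 1285, 709 and 1252 in line 5.8, 1908, 1021 and 1020 in line 17_10, and 1450, 1424 and 1276 in the control. For MLOC_70129 the description as kept holds in the control but not in each library of the lines.

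The 3 genotypes gave similar differences for some members and unlike ones for others. The range over the 3 stage differences was under 0.5 (log2) in 54 members, at least 1 in 45 and at least 2 in 3, with a median of 0.68. MLOC_76360 was the most alike, with differences of -3.22 in line 5.8, -3.21 in line 17_10 and -3.24 in the control. MLOC_1552 had -4.03, -4.00 and -4.04 and MLOC_51613 had -2.83, -2.86 and -2.88 in the same order. MLOC_70129, MLOC_21442 and MLOC_53554 were the least alike. For MLOC_21442 the differences were -5.51 in line 5.8, -4.29 in line 17_10 and -3.07 in the control, and for MLOC_53554 they were -5.86, -5.23 and -3.45. The smallest of the 3 falls, which set the score, was that of line 5.8 in 73 members, of the control in 57 and of line 17_10 in 20.

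Replicate libraries of one group differed more in the members than in the eligible features. The median within-group SD of log2(count + 1) at stage 59 was 0.42 in line 5.8, 0.57 in line 17_10 and 0.32 in the control, against 0.23, 0.17 and 0.14 over eligible features. At stage 49 it was 0.47, 0.20 and 0.40 in the members, against 0.27, 0.12 and 0.19 over eligible features. The spread of the members was thus wider in all 6 groups, by a description with no test. Spread on a log scale is not independent of the level. In median level the members lay below the eligible features at stage 59 and above them at stage 49. What part the level has in the spread was not tested. Features that rose steeply by the mirror-image rule (150 MLOC features with a mean of at least 100 at stage 49 in each genotype and the highest smallest rise) had 0.31, 0.37 and 0.24 at stage 59 and 0.91, 0.30 and 0.64 at stage 49.

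MLOC_21442 was among the most uneven members, with a mean within-group SD of 0.94. It had 864, 137 and 165 normalized counts in libraries of line 5.8, 174, 233 and 200 in line 17_10, and 354, 308 and 484 in the control at stage 59. In stage 49 spikes it had 7279, 48713 and 5306 in line 5.8, 4205, 2878 and 5130 in line 17_10, and 2134, 9979 and 1463 in the control. The 2 replicates numbered 2, of line 5.8 and of the control, were its highest libraries. MLOC_53554 had a mean SD of 1.04 and stood at 9206, 14436 and 6963 in line 5.8 and 2653, 10563 and 1374 in the control at stage 49, with the same 2 libraries highest in their groups. MLOC_51456, with a mean SD of 0.89, was uneven in other libraries, at 695, 562 and 3980 in line 5.8 and 1309, 1037 and 200 in the control at stage 59.

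The steadiest members were MLOC_11560, MLOC_10332, MLOC_51613 and MLOC_4477, with mean within-group SDs between 0.19 and 0.21. MLOC_11560 had 300.1, 292 and 298 normalized counts in libraries of line 5.8, 279, 307 and 274 in line 17_10, and 360.0, 314 and 280 in the control at stage 59. Stage 49 gave 2952, 4982 and 2609 in line 5.8, 2226, 2952 and 2519 in line 17_10, and 2627, 3062 and 3052 in the control. Its 9 libraries of stage 59 all lay within a narrow band, and replicate 2 of line 5.8 was again the odd library of stage 49. MLOC_51613 had 1558, 1062 and 1281 in line 5.8, 1218, 1533 and 1166 in line 17_10, and 1022, 1162 and 1294 in the control at stage 59. For MLOC_51613 the 3 genotypes overlapped at this stage.

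Much of the unevenness was shared between members. Each value was set against the mean of its group, and these deviations were correlated between members over the 18 libraries. The median correlation over all pairs of members was 0.33, and 77.5% of pairs were positive, against a median of 0.0033 and 50.3% of pairs over all eligible features. Rising features had a median of 0.47, with 84.6% of pairs positive. The 150 features with a mean below 10 at stage 59, described further below, had 0.25 and 72.2%. Shared deviation was thus not particular to the members. Correlations across features share libraries and depth, and are given as a description. In replicate 2 of line 17_10 at stage 59, 135 of 150 members lay above their group mean, and in replicate 1 of that group 22 did. Replicate 1 of the control at stage 59 had 126 above, replicate 2 of the control at stage 49 also 126, and replicate 3 of the control at stage 49 had 16.

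These libraries also differed over the rest of the table. A principal component analysis of all tested features without the members gave a first component with 66.6% of the variance, on which stage 59 lay at positive and stage 49 at negative values. Replicates 1 to 3 of line 17_10 at stage 59 stood at 153, 99.5 and 141 on it, and the median deviation of the members was -0.36, 0.52 and -0.15 log2. In the control at stage 59 the positions were 128, 144 and 145 and the deviations 0.24, -0.04 and -0.21. The control at stage 49 stood at -107, -155 and -84.9, with deviations of -0.03, 0.38 and -0.37. In these 3 groups the members were lower the farther a library lay toward the stage 59 end. Line 5.8 at stage 49 went the other way, with positions of -134, -158 and -135 and deviations of 0.18, -0.20 and 0.05. Line 5.8 at stage 59 stood at 127, 120 and 98.2, with deviations of -0.06, -0.01 and -0.01. Line 17_10 at stage 49 covered a short stretch, at -124, -126 and -132, with deviations of 0.04, 0.06 and -0.12. Its library farthest toward the stage 49 end thus had the lowest deviation, also against the pattern of those 3 groups. What part such differences between libraries have in the members' spread was not tested.

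The members did not deviate as a single block. Average-linkage clustering of the deviations, made after the values had been seen, gave 3 sets of 96, 47 and 7 members, called A, B and C. Set A had a median deviation of 0.67 log2 in replicate 2 of line 17_10 at stage 59 and of -0.42 in replicate 2 of line 5.8 at stage 49. Set B had 0.31 and 0.26 in those libraries. In replicate 1 of line 5.8 at stage 59 the sets moved apart, with a median of -0.29 in set A and 0.64 in set B. In the control at stage 49, set B had 0.65 in replicate 2 and -0.59 in replicate 3, and set A had 0.26 and -0.30. The sets were cut from these same deviations, so they describe the libraries and are not tested.

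**Figure D4:**
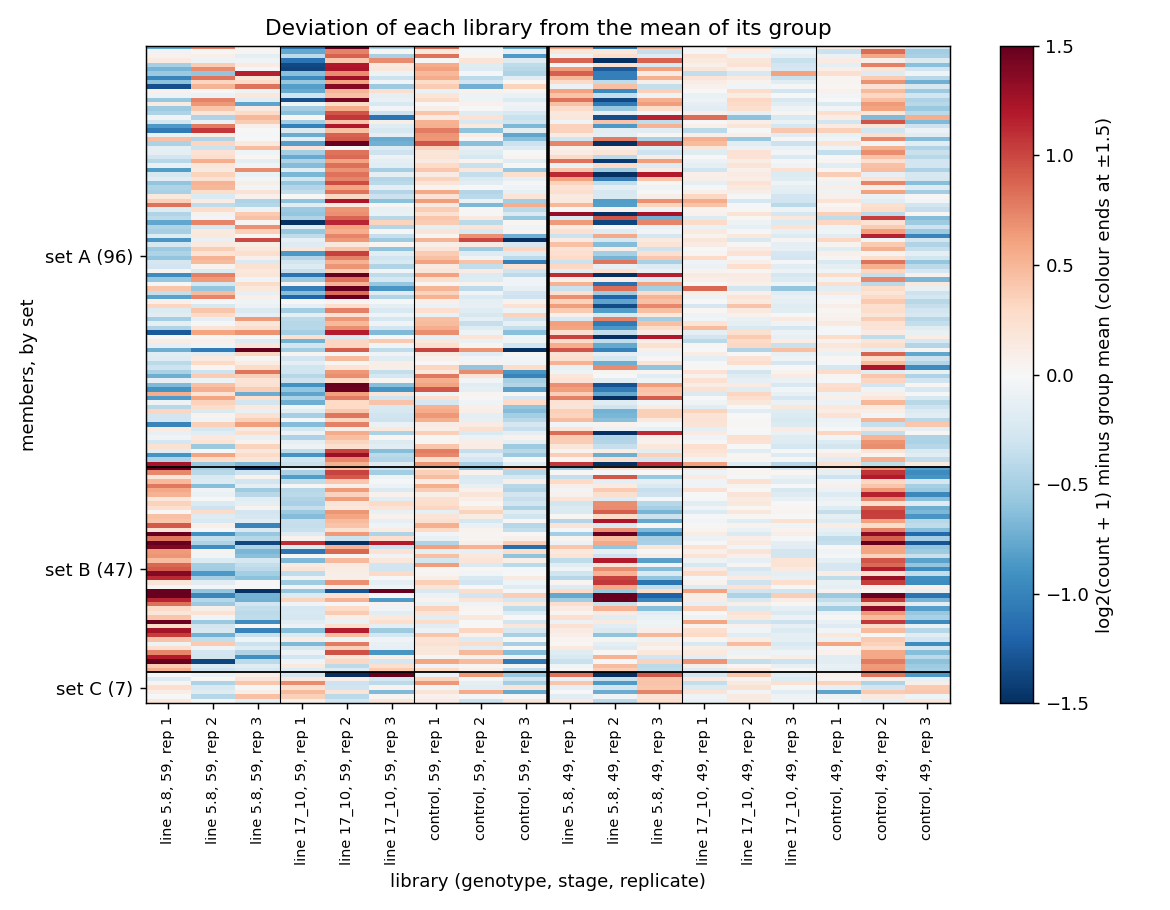
Deviation of log2(count + 1) from the mean of the library's group for the 150 members (rows, by set and then by score) in 18 libraries (columns, stage 59 left of the thick line), with colour ending at ±1.5. Set A is high in replicate 2 of line 17_10 at stage 59 and mostly low in replicate 2 of line 5.8 at stage 49, and set B is high in replicate 1 of line 5.8 at stage 59 and in replicate 2 of the control at stage 49.

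MLOC_2207 had the highest mean correlation with the rest of set A, at 0.64. It stood at 483, 1397 and 889 normalized counts in libraries of line 5.8, 228, 1615 and 381 in line 17_10, and 517, 309 and 290 in the control at stage 59. Its stage 49 values were 12157, 3263 and 10682 in line 5.8, 10601, 12691 and 10274 in line 17_10, and 9256, 11680 and 7937 in the control. MLOC_2207 was thus lowest at stage 49 in replicate 2 of line 5.8, the library in which set B was high. MLOC_65853 had the highest mean correlation in set B, at 0.69. At stage 59 it had 393, 256 and 205 in line 5.8, 101, 169 and 139 in line 17_10, and 290.0, 310.3 and 226 in the control. Stage 49 gave 12902, 14657 and 9996 in line 5.8, 7544, 8608 and 6618 in line 17_10, and 5540.5, 14076 and 3241 in the control. The control libraries of stage 49 thus spanned more than the 3 libraries of either line for this feature. Set C held MLOC_2431, MLOC_53725, MLOC_56803, MLOC_64685, MLOC_69675, MLOC_70279 and MLOC_71086.

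The sets also differed in depth of fall by genotype. Set A had median stage differences of -3.40 in line 5.8, -3.75 in line 17_10 and -3.89 in the control. In set B the medians were -4.33, -3.89 and -3.33 in the same order. The genotype with the shallowest fall was thus line 5.8 in set A and the control in set B. Median levels at stage 59 over the 9 libraries were 522 normalized counts in set A, 301 in set B and 172 in set C, and at stage 49 they were 6905, 6569 and 2911.

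The lines were then compared with the control within each stage. The rule set no direction between genotypes, but the same group means enter the score and the minimum at stage 59, so these comparisons are not independent of the choice. Features were tested by limma on log2(count + 1) with 1 fit of all 18 libraries, and were called at an adjusted p below 0.05 over 20874 features. At stage 59, 0 of 150 members were called in line 5.8, where 0.321% of all features were, and 0 of 150 in line 17_10, where 0.206% were. At stage 49, 0 of 150 were called in line 5.8, against 0.431% of all features, and 0 of 150 in line 17_10, against 0.211%. Between line 17_10 and line 5.8, 0 members were called at stage 59 (0.345% of all features) and 0 at stage 49 (0.426%). Shares this low leave little room for a call among 150 features, and the zeros do not set the members apart. edgeR's quasi-likelihood test on the recovered reads also called 0 members in all 6 comparisons. It called shares of all features of 0.287% for line 5.8 and 0.168% for line 17_10 against the control and 0.283% between the lines at stage 59, and 0.359%, 0.158% and 0.364% for the same at stage 49. DESeq2 called 2 members, both higher in line 5.8 than in the control at stage 59, where it called 1.32% of all features higher, and 0 in the 5 others. Its shares of all features were 2.4% for line 5.8 and 0.903% for line 17_10 against the control and 1.27% between the lines at stage 59, and 1.68%, 0.365% and 1.79% for the same at stage 49.

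The size of difference that the data allow is wide. The 95% interval of a member's log2 fold change had a median half-width of 0.81 and ran from 0.35 to 2.62. In line 17_10 against the control at stage 49, 79 of 150 intervals lay within a 2-fold change in either direction, and in the other 5 comparisons between 44 and 54 did. For the rest, a 2-fold difference is neither shown nor barred by these libraries.

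At an unadjusted p below 0.05 by limma, 27 of 150 members differed in line 5.8 against the control at stage 59, where 16.4% of all features did. The counts were 8 in line 17_10 at that stage (6.39% of all features) and 12 between line 17_10 and line 5.8 (10.2%). At stage 49 they were 22 in line 5.8 (14.9%), 1 in line 17_10 (1.6% of all features) and 10 between the lines (14.7%). As a share of 150, these counts lie near those of the whole table or, between the lines at stage 49, below it. All 3 libraries of line 5.8 lay above all 3 of the control at stage 59 in 25 members, where 8.29% of all features did, and all 3 lay below in 3 members, against 8.15%. In line 17_10 against the control at stage 59 the counts were 8 above (8.07%) and 13 below (9.1%), and against line 5.8 they were 1 above (5.15%) and 11 below (6.88%). At stage 49 line 5.8 had 5 members above the control (7.18%) and 1 below (5.76%), and line 17_10 had 3 above (2.97%) and 0 below (3.04%). By same-numbered pairs, line 5.8 at stage 49 was higher than the control in all 3 pairs in 47 members (24.2% of all features) and lower in all 3 in 6 (22.5%). Line 17_10 lay above line 5.8 at stage 49 in 5 members (10.2%) and below it in 35 (13.9%). The shares of members are highest against the background for line 5.8 above the control at stage 59 and for line 17_10 below line 5.8 at stage 49, among groups that did not overlap, and no test was made of either.

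The middle of the members leaned upward in line 5.8 at both stages. Against the control, the median member log2 fold change of line 5.8 was 0.28 at stage 59 and 0.22 at stage 49, while the median of all tested features was 0.0052 and -0.0049. In each case 105 of 150 members had a positive fold change, as had 8230 and 7132 of the 15286 eligible features. In line 17_10 the members' median was 0.05 at stage 59, with 82 of 150 positive, and 0.14 at stage 49, with 125 of 150 positive, against -0.01 and 0.0022 over all tested features. Of the eligible features, 7882 and 7314 were positive. Line 17_10 against line 5.8 gave a median of -0.30 at stage 59, with 33 positive, and -0.14 at stage 49, with 63 positive, against -0.03 and 0.0065 over all tested features and 7003 and 8053 positive eligible features. Both lines were set against the same control libraries, so their leanings are not separate evidence. Members that deviate together within groups are not independent either.

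That leaning was split between the sets. In line 5.8 against the control at stage 59, set A had a median log2 fold change of 0.51, with 85 of 96 positive, and set B had -0.13, with 19 of 47 positive. At stage 49 the order was turned round, with 0.10 and 61 positive in set A and 0.61 and 42 positive in set B. In line 17_10 at stage 59, set A had 0.22 with 70 positive and set B -0.39 with 9 positive. At stage 49 of line 17_10 the sets were alike, at 0.13 and 0.15. The libraries of line 5.8 and of the control in which the sets moved apart are part of these means, and their part in the split was not tested.

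**Figure D5:**
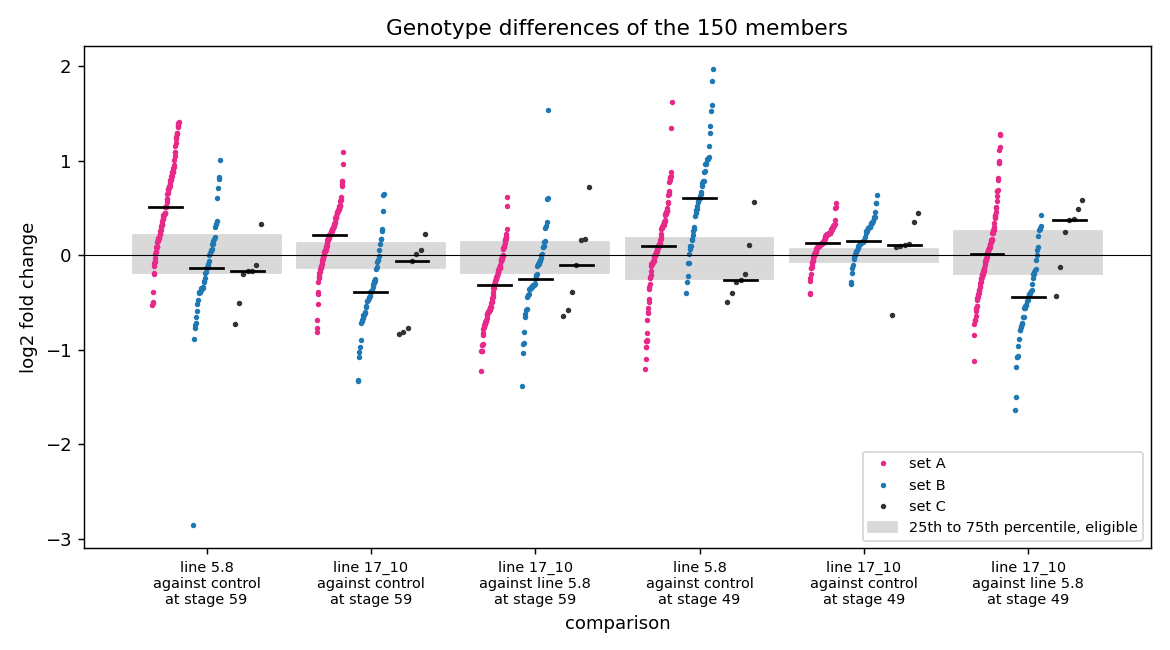
Log2 fold change of each member in 6 genotype comparisons (points, by set A, B and C, sorted by value), with the set medians as black bars and the 25th to 75th percentile of the eligible features as a grey band. Set A lies mostly above 0 in line 5.8 against the control at stage 59, set B mostly above 0 in the same comparison at stage 49, and the spread is narrowest in line 17_10 against the control at stage 49.

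The members nearest to a call are given as values, chosen after their p-values were seen. MLOC_7130 had 549, 866 and 901 normalized counts in libraries of line 5.8, 344, 1279 and 556 in line 17_10, and 381, 257 and 257 in the control at stage 59. All libraries of line 5.8 lay above those of the control, and line 17_10 overlapped both. The log2 fold change of line 5.8 was 1.36 (SE 0.37, 95% interval 0.58 to 2.14, limma adjusted p = 0.147), and by DESeq2 it was 1.37 (adjusted p = 0.022). At stage 49 MLOC_7130 had 8689, 5152 and 8597 in line 5.8, 6375, 7204 and 5218 in line 17_10, and 5995, 5910.04 and 5180 in the control, and the groups overlapped. MLOC_62424 was the other member that DESeq2 called, at 275, 539 and 806 in line 5.8 and 266, 227 and 136 in the control at stage 59 (1.29 on the log2 scale with SE 0.41 and adjusted p = 0.179 by limma, 1.36 with adjusted p = 0.044 by DESeq2).

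In line 17_10 against the control at stage 59, MLOC_37688 had the lowest p. It stood at 139, 229 and 171 normalized counts in line 17_10 and 321, 306 and 229 in the control, with a log2 fold change of -0.68 (SE 0.20, limma adjusted p = 0.394). Line 5.8 at 278, 235 and 302 lay with the control. MLOC 17869 (spelled with a space in the file) had the lowest p in line 5.8 against the control at stage 49, with 2870, 5079 and 2044 in line 5.8 and 838, 2335 and 521 in the control. Its log2 fold change was 1.62 (SE 0.44, limma adjusted p = 0.211), the groups overlapped through control replicate 2, and line 17_10 had 1450, 1402 and 1443. Line 5.8 was higher than the control in each of the 3 same-numbered pairs, which deviate together in these groups. The fit with the replicate block gave a limma adjusted p = 0.203. Its fold change is the same by design, since every group holds each replicate number, and its block is shared by all groups. MLOC_71086 at stage 49 had 2680, 2510 and 2095 in line 17_10 against 1836, 1874 and 1634 in the control (a difference of 0.44 on the log2 scale with SE 0.20, adjusted p = 1 by limma). Between line 17_10 and line 5.8, MLOC_62271 was nearest at stage 59 (log2 fold change -0.62, limma adjusted p = 0.274) and MLOC_63909 at stage 49 (-0.79, limma adjusted p = 0.270). None of these differences was called by limma.

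By limma, members were called only when certain single libraries were left out. Without replicate 1 of line 5.8 at stage 59, 15 members were called in line 5.8 against the control at that stage, 10 higher and 5 lower, where 15.6% of all features were called in the same fit, 6.15% higher and 9.49% lower. All 10 higher members were of set A and all 5 lower ones of set B. The sets were cut from deviations that include the omitted library, where set A had a median of -0.29 and set B 0.64. Leaving it out raises set A and lowers set B in line 5.8, so nothing is read from this split. The rule, applied without that library, would still have chosen 9 of the 15. MLOC_7130 was among the higher ones, with a log2 fold change of 1.59 (limma adjusted p = 0.018). MLOC_70129 was among the lower ones, but its mean in line 5.8 at stage 59 is 7.54 without replicate 1, under the minimum of 100, so the rule would not have chosen it and no fold is given. The same omission called 3 members higher in line 17_10 than in line 5.8, where 6.23% of all features were called (4.24% higher), and the rule would still have chosen 1 of the 3. Without replicate 2 of the control at stage 49, 13 members were called in line 5.8 at that stage, all higher, where 3.69% of all features were called (2.54% higher). These were 9 members of set B and 4 of set A. The sets were cut with the omitted library included, where set B had a median deviation of 0.65 and set A 0.26. The omitted library had 126 members above its group mean, with a median deviation of 0.38 over the members. Leaving it out lowers the control for most members and so raises line 5.8 against it. Same-numbered libraries of line 5.8 and the control deviated together at stage 49. Replicate 2 of line 5.8 stayed in this fit without its counterpart. Nothing is read from the split between the sets, from the count of 13 or from its direction. The rule would still have chosen 9 of the 13 members. Among them were MLOC 17869 at 2.23 (limma adjusted p = 0.0074) and MLOC_64633 at 2.04 on the log2 scale (limma adjusted p = 0.0075). Leaving out replicate 2 of line 17_10 at stage 59 called MLOC_7130 alone in line 5.8 against the control, as higher, where 0.259% of all features were called higher.

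The test of the difference in stage change between a line and the control uses the same contrast as the rule and is given for completeness. By limma, 0 of 150 members were called in line 5.8 (10 at an unadjusted p below 0.05, against 11.3% of all features) and 0 in line 17_10 (3, against 2.53%), and edgeR and DESeq2 called 0. Over all features limma and edgeR called 0% for either line and DESeq2 0.288% for line 5.8 and 0.0721% for line 17_10, and nothing is read from these counts.

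The choice was also repeated without each replicate number in turn, and the stage difference of the 150 features so chosen was read in the libraries left out. Without the replicates numbered 1, the features chosen had median differences of -3.64 in line 5.8, -3.95 in line 17_10 and -3.13 in the control between the 2 libraries left out, and all 150 were lower at stage 59 in each genotype. Without those numbered 3 the medians were -3.56, -3.84 and -3.50, and again all 150 were lower in each. Without those numbered 2 they were -2.41, -3.12 and -4.08, and 150 of 150 were lower in line 17_10 and the control but 137 in line 5.8. In the libraries used for that last choice the medians were -3.61, -4.01 and -3.60, and 92 of 150 features in line 5.8, 143 in line 17_10 and 149 in the control were at least 4-fold lower in the libraries left out. In the choices without numbers 1 and 3, between 142 and 150 were at least 4-fold lower. Eligible features had medians between 0.03 and 0.09 in the same pairs of libraries, which the scaling by size factors largely sets. The share of eligible features that were lower in those pairs was not counted, so the counts above are given as a description. With no such share beside them, nothing is read from these counts. For the replicates numbered 2, the median fall in line 5.8 and line 17_10 was shallower than in the libraries used for that choice.

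The 13 exceptions in that pair were all low in replicate 2 of line 5.8 at stage 49, and none of them is among the 150 members. MLOC_66877 had 516, 607 and 605 normalized counts in line 5.8 at stage 59, against 4067, 7.95 and 6561 at stage 49. MLOC_74149 had 2749, 13902 and 7697 at stage 59, against 29677, 923 and 39955 at stage 49. In replicates 1 and 3 both features showed the same kind of fall as the members, and in replicate 2 they were higher at stage 59. That choice left out every library numbered 2, so which of them keeps such features out of the 150 was not tested.

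As a neighbouring pattern, 150 MLOC features with a mean below 10 at stage 59 in each genotype and the highest scores were set beside the members. No feature was in both sets. Their median group mean at stage 49 was 221 normalized counts in line 5.8, 173 in line 17_10 and 165 in the control, and together they took 0.164, 0.0913 and 0.104% of all counts there. At stage 49 their median within-group SD was 1.25, 0.39 and 1.30, against 0.47, 0.20 and 0.40 in the members. The rules for the 2 sets, with means of at least 100 and below 10 at stage 59, largely fix this difference in level, and the spread on a log scale is not independent of the level. Nothing is read from either difference.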

How the data were processed

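Whole spikes gave 3 µg of total RNA per sample for stranded mRNA libraries, per the labels' protocols. The authors deposited a single signal table, in which gene counts are divided by DESeq size factors. STAR 2.4.2a, Subread 1.5.2 and DESeq2 appear in the submitters' processing notes without their order. Build, annotation and strand setting were not given in the labels used here, nor how multiply aligned reads were counted, so near-identical copies or overlapping genes may share or lose reads. A level is relative to the rest of its library.

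Dividing by the value of 1 read gave whole numbers for 100% of values (tolerance 0.001), with 24459652 to 106034579 reads per library. Tests used log2(normalized count + 1), which understates changes of low features. Features with at least 10 normalized counts in at least 3 of 18 libraries were tested (20874), all 150 members among them. limma 3.58.1 (R 4.3.3) was fitted to 6 group means over all libraries with a mean-variance trend. Tests were two-sided, with Benjamini-Hochberg adjustment over all tested features. The fit was checked on simulated counts, drawn independently with no library standing apart, so that check does not cover such libraries. edgeR 4.0.16 (quasi-likelihood) and DESeq2 1.42.0 on the recovered reads, other pseudocounts, no filter, TMM scaling, a replicate block, fits of the compared groups alone and omission of each library were alternatives. No 2 libraries of a group agreed within sampling noise.

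The members, sets and lists were chosen with earlier results of these data known. Named members were the 8 highest scores, 3 on each side of the edge, the 4 most abundant at each stage, the 4 most and the 4 least even, the 3 with the widest and the 3 with the narrowest range of stage differences, and any member called between genotypes by limma (it called none). Those named for a low p, for DESeq2, for an omitted library or as the centre of a set were chosen after their values were seen. Same-numbered libraries deviated together in 1 of 15 group pairs, the control and line 5.8 at stage 49 (correlations of 0.153, 0.393 and 0.4 across features). The labels do not say what a number shares.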

Additional observations from a re-analysis of the deposited data

How the results depend on the processing

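The median stage differences of the members moved by less than the spread between libraries under both other pseudocounts, TMM scaling and omission of any library, with ranges of -3.75 to -3.44 in line 5.8, -4.06 to -3.57 in line 17_10 and -3.86 to -3.46 in the control without 1 library. Of the 150 members, 150 were also chosen with a pseudocount of 0.1, 147 with 10, 147 with TMM scaling, 140 by ratios of group means, 109 with a minimum of 50 at stage 59 and 105 with a minimum of 200. Between 109 and 149 were chosen without 1 library or 1 replicate number, and 95 remained in all 18 choices without a single library. The count of members called was 0 in all 6 genotype comparisons with either other pseudocount, no filter, TMM scaling, fits of the compared groups alone and edgeR, where between 0.12 and 0.45% of all features were called. DESeq2 gave 2 in line 5.8 against the control at stage 59 and 0 in the 5 other comparisons. With 1 library left out the counts ran from 0 to 15 in that comparison, from 0 to 13 in line 5.8 against the control at stage 49 and from 0 to 3 in line 17_10 against line 5.8 at stage 59, and stayed at 0 in the other 3; the cause was not tested. With the replicate block the count was 0 in every comparison, as without it. That fit used 1 effect per replicate number over all 6 groups, though the numbers paired in only 1 of 15 group pairs. It therefore cannot account for the pairing of line 5.8 and the control at stage 49. The block fit called 0.187 to 0.412% of all features. At such shares, 0 of 150 does not set the members apart. Each group has 3 libraries, and the median 95% interval of a member's log2 fold change, 0.81 to either side, sets what can be called. Members had means of at least 100 normalized counts at stage 59.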
